A study of Homo sapiens with 17 samples.

Results

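The genes described here are 10 human enzymes that reduce carbonyl groups or handle the glutathione adduct of formaldehyde. They are the carbonyl reductases CBR1 and CBR3, the aldo-keto reductases AKR1A1, AKR1B1, AKR1B10, AKR1C1, AKR1C2 and AKR1C3, the alcohol dehydrogenase ADH5 and the esterase ESD. They were taken by gene symbol from the deposited table, in which all 10 stand among 16884 protein-coding genes. The rule uses gene symbols and no measured values. Messenger RNA had been sequenced from wild-type BEAS-2B, bronchial epithelial cells of human origin that were immortalised into a line, grown in BEGM medium. The cells had spent 24 h in that medium with 0 mM (control, 6 libraries), 10 mM (6 libraries) or 16 mM acetaldehyde (5 libraries). All groups are the same line, so differences between donors are outside the design, and no label states that replicate libraries stem from separate cultures. The p-values therefore measure the spread between libraries, which may be technical.

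Acetaldehyde is removed in cells mainly by oxidation to acetate by aldehyde dehydrogenases, and the enzymes described here act beside that route. Carbonyl reductases and aldo-keto reductases use NADPH to turn aldehydes, ketones and quinones into alcohols, and several of their genes are known targets of the transcription factor NRF2, whose binding site is the antioxidant response element. ADH5 oxidises the formaldehyde that has combined with glutathione and also reduces S-nitrosoglutathione, and ESD cleaves the S-formylglutathione that ADH5 makes.

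The genes lie in 3 small clusters and at 3 single positions (coordinates of the deposited table, GRCh38.p13). CBR1 (chr21:36070024-36073164) and CBR3 (chr21:36130376-36146562) are neighbours 57.2 kb apart, and their coding sequences are 77.0% identical. AKR1B1 (chr7:134442350-134459284) and AKR1B10 (chr7:134527567-134543083) are 68.3 kb apart and 75.8% identical. AKR1C1 (chr10:4952949-4983283), AKR1C2 (chr10:4984947-5018031) and AKR1C3 (chr10:5048781-5107686) follow each other on chromosome 10. ADH5 (chr4:99070978-99088788), ESD (chr13:46724211-46805085) and AKR1A1 (chr1:45550779-45570051) stand alone. The deposited table gives AKR1C2 the plus strand, whereas GENCODE v29 has it on the minus strand.

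How far reads can be divided between the AKR1C genes depends on how alike they are. Over the whole transcript chosen for each gene in GENCODE v29, untranslated ends included, 28.3% of the 50-base words of AKR1C1 also stand in AKR1C2. Of the words of AKR1C2, 50.8% stand in AKR1C1. The AKR1C3 transcript holds 2.03% of the words of AKR1C1 and 4.56% of those of AKR1C2. The coding sequences alone of AKR1C1 and AKR1C2 differ at 19 of 969 bases (98.0% identity). In coding sequence AKR1C3 is 91.4% identical to AKR1C1 and 91.0% to AKR1C2. The first 120 coding bases of each show this, with capitals at the 19 positions where the 3 genes are not all the same and 4 of these positions separating AKR1C1 from AKR1C2.
AKR1C1: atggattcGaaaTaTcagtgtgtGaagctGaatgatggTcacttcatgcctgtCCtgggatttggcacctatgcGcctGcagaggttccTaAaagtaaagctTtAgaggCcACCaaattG
AKR1C2: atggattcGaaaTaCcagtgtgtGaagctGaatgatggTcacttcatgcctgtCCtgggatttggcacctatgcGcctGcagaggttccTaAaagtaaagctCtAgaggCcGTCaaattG
AKR1C3: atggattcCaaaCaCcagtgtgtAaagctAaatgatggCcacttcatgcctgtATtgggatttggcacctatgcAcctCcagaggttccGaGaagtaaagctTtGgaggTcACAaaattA
No 50-base word is shared between the coding sequences of CBR1 and CBR3 or of AKR1B1 and AKR1B10. Exons of CBR1 overlap those of AP000688.1 and exons of CBR3 overlap those of CBR3-AS1, both on the opposite strand. Strandedness is not stated in the sources at hand, so reads of such partners cannot be told apart.

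RefSeq promoter windows (250 bases before to 50 after the start, GRCh38.p14) matched 8 of the 10 members by symbol, all but CBR3 and AKR1B10. In all, 5 motifs were searched on both strands. The core of the antioxidant response element, TGACNNNGC, stood in 13.3% of all 35116 promoter windows and, among the matched members, in CBR1 alone, once, 159 bases before the start. The bases upstream of CBR1 (chr21:36069774-36069940, plus strand, up to its earliest annotated exon) are shown because CBR1 is called higher at both doses below, with this match in capitals, read from the opposite strand.
CBR1: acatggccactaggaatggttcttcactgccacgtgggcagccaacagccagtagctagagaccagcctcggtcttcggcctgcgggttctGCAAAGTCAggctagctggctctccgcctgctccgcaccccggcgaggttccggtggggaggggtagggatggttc
The GC box CCGCCC stood in 45.0% of all windows and in those of AKR1A1, ADH5, AKR1B1, ESD and CBR1, which are the 5 matched members with at least 42.4 FPKM in every library. The ADH5 window holds CCGCCC at 2 positions and no TGACNNNGC. Its bases up to the earliest annotated exon (chr4:99088802-99089038, minus strand) are shown as an example, with the 1 match inside them in capitals, and the other match lies beyond them.
ADH5: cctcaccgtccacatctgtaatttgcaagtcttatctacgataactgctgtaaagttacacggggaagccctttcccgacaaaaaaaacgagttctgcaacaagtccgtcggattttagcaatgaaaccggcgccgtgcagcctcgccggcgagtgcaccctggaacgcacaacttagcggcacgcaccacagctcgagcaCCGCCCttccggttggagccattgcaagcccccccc
The heat shock element pair GAANNTTC (6.77% of all windows) stood once each in AKR1C1 and AKR1C2, and TATAAA (11.5%) once in AKR1C3. The AP-1 site TGANTCA (7.71%) stood in none of the members' windows. These matches describe the letters of the windows only.

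Library 1 of the 10 mM group stood apart, and the results of the members at 10 mM are given with and without it. Its log2 expression correlated with the other 10 mM libraries at r between 0.840 and 0.866 across genes, against 0.977 to 0.995 between other libraries of 1 group. Its FPKM (fragments per kilobase of transcript, scaled to library depth) summed to 977403, against 506795 to 554077 elsewhere, so its FPKM are not on the scale of the rest. The other 16 libraries fall into close set A (control 1 to 3, 10 mM 2 to 4, 16 mM 1 to 3) and close set B (control 4 to 6, 10 mM 5 and 6, 16 mM 4 and 5), found from their correlations and named by no label. Within a group, libraries of 1 close set correlated at 0.991 to 0.995. Total counts lay between 15952673 and 18809242 per library. Of 7 epithelial markers, the keratins KRT7, KRT8 and KRT18 were at 181 FPKM or more in every library, KRT19 and EPCAM were under 0.1 FPKM throughout, and so were KRT5 and CDH1 at both doses. Of 8 fibroblast markers, 3 to 4 averaged at least 1 FPKM in each group. VIM averaged 773 FPKM in control, 650 at 10 mM without library 1 and 554 at 16 mM, and COL1A1 3.62, 6.74 and 3.48. Lower means at 16 mM than in control were also seen for PDGFRB (3.50 FPKM against 12.7) and FAP (0.472 against 2.02). The same held for LUM (0.216 against 0.652) and DCN (0.072 against 0.350), while COL1A2 and COL3A1 were under 0.1 FPKM throughout. Of 3 leukocyte markers, PTPRC and CD3E were under 0.1 FPKM throughout, as were the 3 endothelial markers, while CD68, a lysosomal protein, averaged 3.32 FPKM in control, 9.39 at 10 mM and 12.1 at 16 mM. The part of these markers in the results was not tested.

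Both carbonyl reductases rose at both doses, and in the fit of 17 libraries no other tested member was called higher in both comparisons with control. Calls rest on an adjusted p under 0.05 (edgeR quasi-likelihood test, Benjamini-Hochberg over 12564 genes). At 10 mM, 4 of the 8 members tested (CBR1, CBR3, AKR1C2 and AKR1C3) were called higher and 0 lower than control, where 9.41% of all tested genes were called higher and 9.30% lower (18.7% in all). At 16 mM, 2 of 8 (CBR1 and CBR3) were called higher and 0 lower, against 17.3% and 18.1% of all genes (35.3% in all). Between the doses, 0 of 8 were higher and 2 of 8 (AKR1C2 and AKR1C3) lower at 16 mM than at 10 mM, against 6.69% and 7.46% (14.1% in all). RNA in bulk samples does not tell fewer cells apart from less RNA per cell. AKR1C2 passed the filter on low counts only through its 10 mM libraries. Without control library 1, only CBR1 and AKR1C2 were called higher at 10 mM. Without 16 mM library 2, 4 or 5, only AKR1C2 was called lower between the doses. Over the fits leaving out 1 library, 738 to 2816 of all genes were called higher at 10 mM. Between the doses 428 to 2621 were called lower. The share in each single fit is not given here, so these calls describe the fits and not the members. The plot of changes gives all 8 tested members in the 3 comparisons.

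CBR1, which reduces quinones, prostaglandins and many xenobiotic ketones, had 44.2 to 57.6 FPKM in control libraries (median 48.9). At 10 mM, library 1 had 97.7 FPKM and libraries 2 to 6 had 69.5, 60.4, 65.2, 91.3 and 82.8 FPKM. At 16 mM, libraries 1 to 5 had 81.8, 85.7, 82.7, 95.2 and 100.5 FPKM. Every exposed library lay above every control library, as for 4.55% of all tested genes at 10 mM and 23.8% at 16 mM, while the 2 doses overlapped. The share at 10 mM includes library 1, whose median FPKM over tested genes was 6.64, against 13.6 to 15.2 elsewhere. No share without that library is given here, so the low share does not show that the pattern is rare. CBR1 rose by 0.87 ± 0.24 on the log2 scale at 10 mM (1.83-fold, edgeR adjusted p = 0.0164) and by 0.83 ± 0.24 at 16 mM (1.78-fold, adjusted p = 0.0134). Without 10 mM library 1 the rises were 0.55 ± 0.13 (adjusted p = 0.00251) and 0.84 ± 0.13 (adjusted p = 2.54e-05), and 16 mM was 0.29 ± 0.14 above 10 mM (adjusted p = 0.0946). Fits within a close set called 61.7% to 78.0% of all genes against control, and their share between the doses is not given here. In such fits the difference between the doses was called in set A (0.34, edgeR adjusted p = 5.99e-05) and in set B (0.21, adjusted p = 0.00585). With a close-set term the difference was also called (0.30, adjusted p = 0.000120). It was not called with close libraries summed, without the term (0.26, adjusted p = 0.542) or with it (0.27, adjusted p = 0.146). The direction in library 1 itself depended on the scale. Its CBR1 level was 99.9 TPM (shares of all transcripts), inside the control range of 87.1 to 107.8 TPM, but 159 CPM (counts scaled to library size) after TMM scaling, above the control range of 36.1 to 51.8.

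CBR3, the close homologue of CBR1 with a narrower range of known substrates, had 9.48 to 13.7 FPKM in control libraries (median 11.1). At 10 mM, library 1 had 20.8 FPKM and libraries 2 to 6 had 14.9, 13.2, 14.6, 19.8 and 16.8 FPKM. At 16 mM, libraries 1 to 5 had 21.7, 25.6, 18.9, 27.2 and 25.0 FPKM. All 16 mM libraries lay above all control libraries, as for 23.8% of all tested genes, whereas 10 mM library 3 lay below the highest control. CBR3 rose by 0.81 ± 0.24 on the log2 scale at 10 mM (1.75-fold, edgeR adjusted p = 0.0259) and by 1.08 ± 0.25 at 16 mM (2.12-fold, adjusted p = 0.00258). The rise at 10 mM was not called without control library 1 (0.78 ± 0.26, adjusted p = 0.0580) or control library 5 (0.77 ± 0.26, adjusted p = 0.0522). Without 10 mM library 1 its rise at 10 mM was 0.49 ± 0.14 (adjusted p = 0.00759), and 16 mM exceeded 10 mM by 0.60 ± 0.14 (adjusted p = 0.00247). With that library the difference between the doses was 0.27 ± 0.24 (adjusted p = 0.456).

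The rise of CBR3 was larger in close set B than in close set A. Fits within a set called 63.7% of genes at 10 mM and 71.9% at 16 mM in set A, and 61.7% and 78.0% in set B. At 10 mM it was 0.79 ± 0.12 in set B (edgeR adjusted p = 5.36e-06) and 0.23 ± 0.13 in set A (adjusted p = 0.129). At 16 mM it was 1.35 ± 0.11 in set B and 0.86 ± 0.12 in set A. The difference between the sets was 0.56 ± 0.18 at 10 mM (adjusted p = 0.0222) and 0.48 ± 0.18 at 16 mM (adjusted p = 0.0294), in a test that called 38.2% and 49.1% of all genes. For CBR1 the same difference was 0.09 ± 0.08 at 10 mM and -0.05 ± 0.08 at 16 mM, with adjusted p of 0.414 and 0.649. With the libraries of each close set summed into 1, which left 25.8% of genes called at 16 mM and 1.83% at 10 mM, both reductases were still called at 16 mM (CBR1 0.86 ± 0.22, adjusted p = 0.0257; CBR3 1.11 ± 0.24, adjusted p = 0.0140). At 10 mM neither was (adjusted p = 0.189 for CBR1 and 0.265 for CBR3), until a term for the close set was added (12.3% of genes called at 10 mM and 42.5% at 16 mM), when CBR1 alone of the pair was called (adjusted p = 0.0148).

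**Figure D1:**
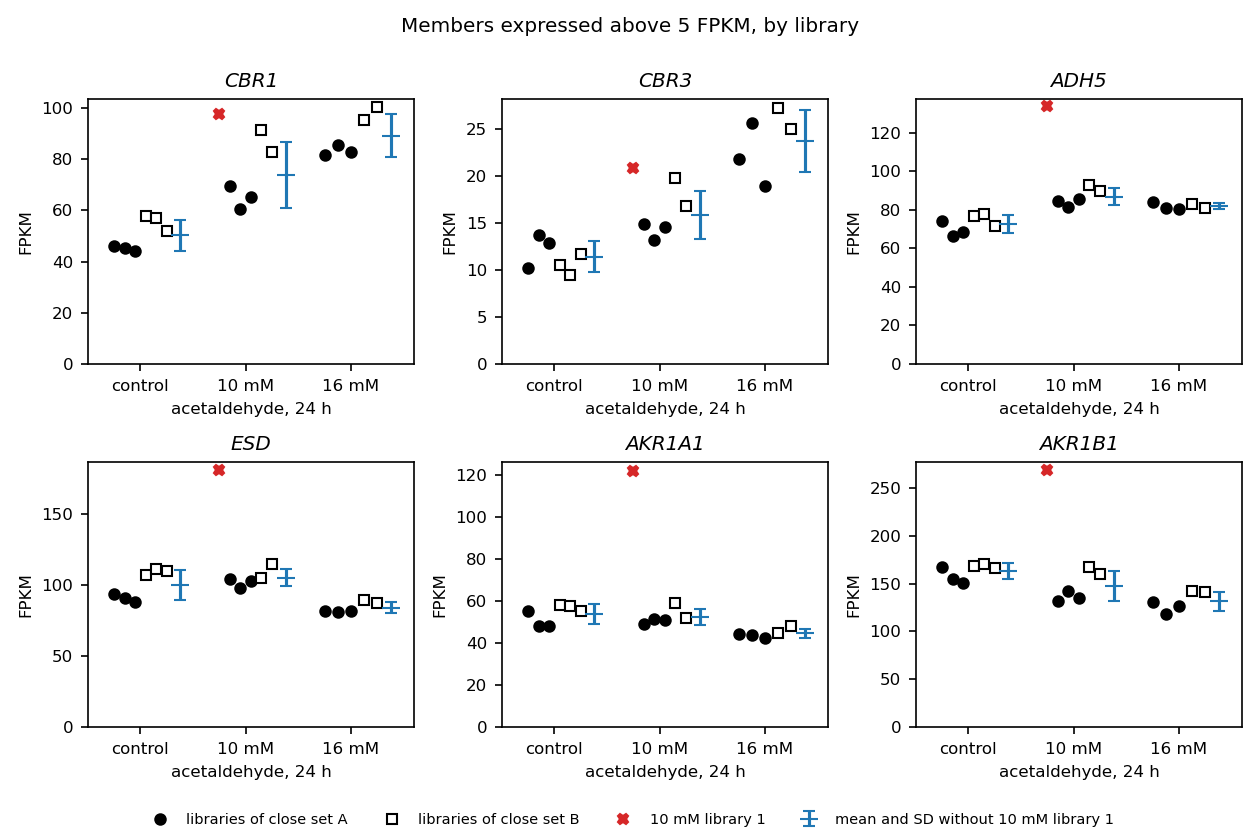
FPKM per library (vertical axes, from 0) of the 6 members above 5 FPKM, in control, 10 mM and 16 mM libraries; filled circles are close set A, open squares close set B, red crosses 10 mM library 1, and bars the mean and SD without it. CBR1 at 16 mM sits between 81.8 and 100.5, above all controls, and library 1 is the highest point of the 10 mM group in every panel.

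ADH5, the formaldehyde and S-nitrosoglutathione enzyme, was not called with all 17 libraries and rose slightly at both doses without 10 mM library 1. Control libraries had 66.3 to 78.1 FPKM (median 73.2). At 10 mM, library 1 had 134 FPKM and libraries 2 to 6 had 84.6, 81.5, 85.6, 93.1 and 90.0 FPKM. At 16 mM, libraries 1 to 5 had 84.1, 81.1, 80.3, 83.1 and 81.2 FPKM. All exposed libraries lay above all controls in FPKM, as for 4.55% of all tested genes at 10 mM and 23.8% at 16 mM. The share at 10 mM includes library 1, with the limit given for CBR1. With 17 libraries the log2 change was 0.65 ± 0.24 at 10 mM (edgeR adjusted p = 0.0653) and 0.18 ± 0.25 at 16 mM (adjusted p = 0.614). Without library 1, ADH5 rose by 0.26 ± 0.07 at 10 mM (1.20-fold, adjusted p = 0.00738) and by 0.19 ± 0.07 at 16 mM (1.14-fold, adjusted p = 0.0262). The change at 10 mM also passed, at 0.73, without 10 mM library 2, 3 or 4 (adjusted p of 0.0479, 0.0455 and 0.0486). Library 1 had 137 TPM of ADH5, the lowest of the 10 mM group and inside the control range of 129 to 145 TPM. With the close libraries summed, ADH5 was not called at 10 mM (adjusted p = 0.364) or at 16 mM (adjusted p = 0.398).

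ESD, which acts after ADH5 in formaldehyde removal, was not called with 17 libraries and fell at 16 mM without 10 mM library 1. Control libraries had 88.1 to 111.7 FPKM (median 101), 10 mM libraries 2 to 6 had 105, 98.1, 103, 105 and 115 FPKM, and 16 mM libraries had 81.8, 81.1, 81.6, 89.5 and 87.4 FPKM. Library 1 of the 10 mM group had 182 FPKM. The 16 mM libraries lay below all 10 mM libraries and overlapped the lower controls. The former held for 4.49% of all tested genes, a share that includes library 1, with the limit given for CBR1. The 17-library changes were 0.51 ± 0.27 at 10 mM and -0.25 ± 0.28 at 16 mM, neither called (edgeR adjusted p = 0.177 and 0.536). Without library 1, ESD fell by 0.24 ± 0.09 at 16 mM against control (adjusted p = 0.0237) and by 0.30 ± 0.09 at 16 mM against 10 mM (adjusted p = 0.0140).

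AKR1A1 and AKR1B1 were not called in any comparison of 17 libraries, and both were lower at 16 mM once 10 mM library 1 was left out. AKR1B1, aldose reductase, was the most abundant member, with 151 to 171 FPKM in control libraries (median 167). At 10 mM, library 1 had 269 FPKM and libraries 2 to 6 had 132, 142, 135, 168 and 160 FPKM, and at 16 mM libraries 1 to 5 had 130, 118, 126, 142 and 141 FPKM. Every 16 mM library lay below every control, as for 22.3% of all tested genes. Its change at 16 mM was -0.30 ± 0.30 with 17 libraries (edgeR adjusted p = 0.476), and without library 1 it fell by 0.29 ± 0.09 (adjusted p = 0.0114). AKR1A1, aldehyde reductase, had 47.9 to 58.0 FPKM in control libraries (median 55.3), 49.0, 51.5, 51.1, 59.2 and 52.0 FPKM in 10 mM libraries 2 to 6, and 44.4, 43.6, 42.4, 44.8 and 48.1 FPKM at 16 mM. Library 1 had 122 FPKM. The 16 mM group overlapped the lowest controls, and without library 1 AKR1A1 fell by 0.27 ± 0.09 (adjusted p = 0.0112). With the close libraries summed neither was called at 16 mM (adjusted p = 0.288 for AKR1B1 and 0.259 for AKR1A1), nor was ESD (adjusted p = 0.331). At 10 mM the sign of both changes turned with that library. AKR1B1 had a change of 0.35 ± 0.28 with it and -0.14 ± 0.09 without it, and AKR1A1 one of 0.60 ± 0.33 with it and -0.05 ± 0.09 without it, none of these being called. AKR1B1 was called lower at 10 mM without library 1 when a close-set term was added (-0.12 ± 0.04, adjusted p = 0.0270), when a term for library numbers 1 to 3 against 4 to 6 was added (-0.17, adjusted p = 0.0316) and in close set A (-0.19 ± 0.05, adjusted p = 0.00513). It was not called in close set B (adjusted p = 0.419) or with close libraries summed plus the term (adjusted p = 0.504).

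**Figure D2:**
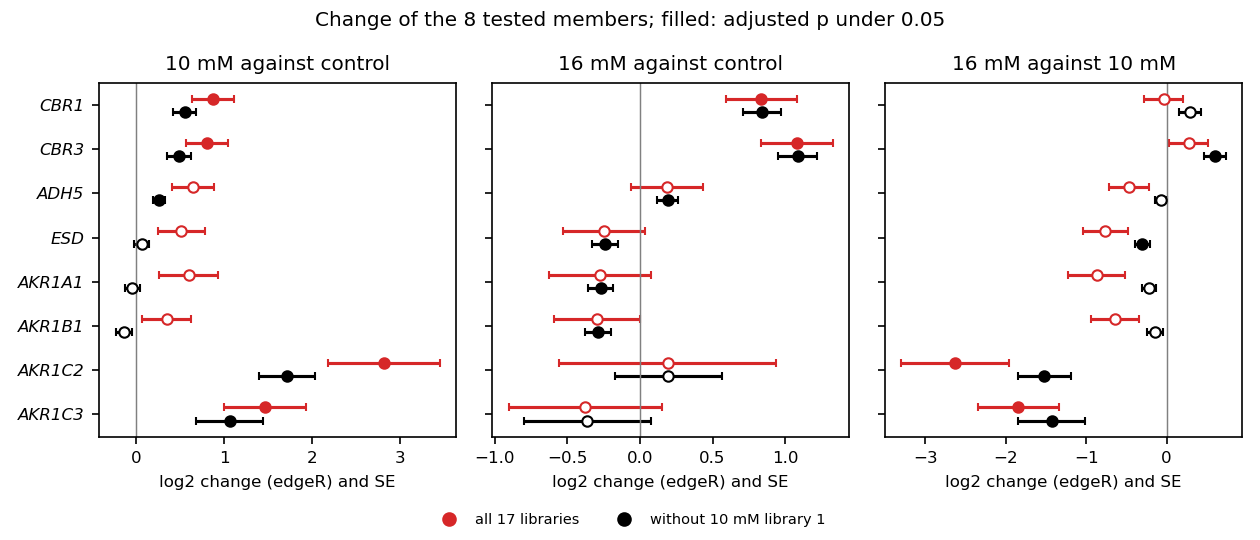
Log2 change and SE from edgeR (horizontal axes) of the 8 tested members for 10 mM against control, 16 mM against control and 16 mM against 10 mM, with all 17 libraries in red and without 10 mM library 1 in black; filled points have an adjusted p under 0.05. CBR1 and CBR3 are filled in both comparisons with control in both fits, and the SE of most points is narrower without library 1.

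The AKR1C genes, hydroxysteroid dehydrogenases that also reduce quinones and lipid aldehydes, were close to the detection limit, and AKR1C2 and AKR1C3 were higher at 10 mM but not at 16 mM. AKR1C3, which makes testosterone and prostaglandin F, had 0.21 to 1.69 FPKM in control libraries (median 0.685). At 10 mM, library 1 had 3.06 FPKM and libraries 2 to 6 had 1.87, 2.38, 1.67, 1.89 and 1.35 FPKM, and at 16 mM libraries 1 to 5 had 0.91, 0.55, 1.12, 0.28 and 0.54 FPKM. The 10 mM libraries lay above all 16 mM libraries and overlapped the controls of close set B. The former held for 4.49% of all tested genes, a share that includes library 1, with the limit given for CBR1. AKR1C3 rose by 1.47 ± 0.46 on the log2 scale at 10 mM against control (edgeR adjusted p = 0.0358) and fell by 1.84 ± 0.51 at 16 mM against 10 mM (adjusted p = 0.0240). Without library 1 these changes were 1.07 ± 0.38 (adjusted p = 0.0309) and -1.43 ± 0.42 (adjusted p = 0.0112). The rise at 10 mM was not called without control library 1, 2, 3 or 4 (adjusted p of 0.0798, 0.0719, 0.0810 and 0.0593), nor the fall between doses without 16 mM library 2, 4 or 5 (adjusted p of 0.0546, 0.0742 and 0.0665).

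At 10 mM, AKR1C3 rose by 2.25 ± 0.36 in close set A (edgeR adjusted p = 7.12e-05), and its change in close set B was 0.29 ± 0.32 (adjusted p = 0.448). Against control, it moved in opposite directions at 16 mM in the close sets. It rose by 1.03 ± 0.43 in set A (edgeR adjusted p = 0.0422), where controls had 0.55, 0.21 and 0.48 FPKM. It fell by 1.63 ± 0.45 in set B (adjusted p = 0.00230), where controls had 0.82, 1.44 and 1.69 FPKM. The difference between the sets was -2.67 ± 0.64 at 16 mM (adjusted p = 0.00182) and -1.97 ± 0.51 at 10 mM (adjusted p = 0.00454). That test called 49.1% of all genes at 16 mM and 38.2% at 10 mM. The pooled change of -0.38 ± 0.53 at 16 mM (adjusted p = 0.624) lies between the opposite values of the sets. Counts were few, with 8, 3 and 7 in the controls of set A and 4 and 8 at 16 mM in set B. The sets were found from these same libraries, which may be technical repeats, so these p-values measure the spread between libraries only.

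AKR1C2 had 0.10 to 0.27 FPKM in control libraries (median 0.15). At 10 mM, library 1 had 2.08 FPKM and libraries 2 to 6 had 0.36, 0.44, 0.56, 0.52 and 0.21 FPKM, and at 16 mM libraries had 0.10, 0.10, 0.20, 0.29 and 0.15 FPKM. Only 10 mM library 6 of that group lay within the control range. The change was 2.82 ± 0.63 on the log2 scale at 10 mM (edgeR adjusted p = 0.00558) and 1.72 ± 0.31 without library 1 (adjusted p = 0.000326), a 3.28-fold rise. With the close libraries summed, neither AKR1C2 nor AKR1C3 was called at 10 mM (adjusted p = 0.118 and 0.356). AKR1C2 entered the test through its 10 mM counts, since 0 of 6 control, 6 of 6 10 mM and 1 of 5 16 mM libraries reached the count filter, so it was tested only because it is high there. Counts summed to 39.8 over the 6 control, 223 over the 6 10 mM and 36.9 over the 5 16 mM libraries, and library 1 alone held 113 of the 10 mM sum. With AKR1C1 and AKR1C2 added together, which leaves the words they share with AKR1C3, the log2 change was 2.33 ± 0.53 at 10 mM and 0.67 ± 0.58 at 16 mM. This sum includes library 1 with its 113 counts of AKR1C2, and no value without that library is given.

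AKR1C1 and AKR1B10, an aldo-keto reductase that reduces retinaldehyde and aliphatic aldehydes, had too few counts for the main test. AKR1C1 had 0.02 to 0.08 FPKM in control, 0.06 to 0.15 FPKM at 10 mM and 0.07 to 0.19 FPKM at 16 mM, from at most 12 counts in a library. In a fit without the count filter, which called 26.9% of its genes at 16 mM against control, AKR1C1 changed by 1.19 ± 0.38 on the log2 scale (edgeR adjusted p = 0.0274). At 10 mM its change was 0.87 ± 0.38 (adjusted p = 0.141). AKR1B10 had 0 to 10 counts per library and at most 0.45 FPKM, and its changes in that fit were 0.73 ± 0.53 at 10 mM (adjusted p = 0.387) and -0.34 ± 0.61 at 16 mM (adjusted p = 0.734). At these counts smaller changes of both genes were not detectable.

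**Figure D3:**
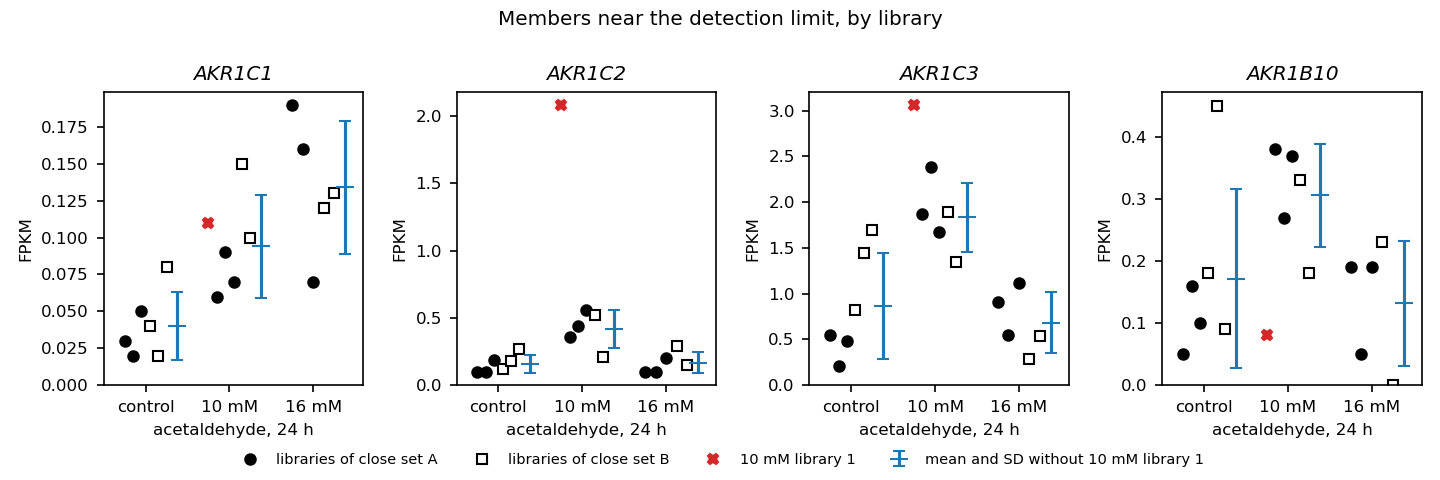
FPKM per library (vertical axes, from 0, each panel with its own scale) of the 4 members near the detection limit, in control, 10 mM and 16 mM libraries, with symbols for close set A (filled circles), close set B (open squares), 10 mM library 1 (red crosses) and the mean and SD without it (bars). The 10 mM libraries of AKR1C3 run from 1.35 to 3.06, above the 16 mM libraries, while library 1 of AKR1C2 stands alone at 2.08.

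The order of levels within the family differed between the groups. In control cells mean FPKM ran from AKR1B1 (163 ± 8.06, SD, n = 6) over ESD (100.4 ± 10.5), ADH5 (72.7 ± 4.61), AKR1A1 (53.7 ± 4.63) and CBR1 (50.3 ± 6.05) to CBR3 (11.4 ± 1.63), and only AKR1A1 and CBR1 among these neighbours overlapped in their ranges. At 10 mM without library 1, CBR1 averaged 73.8 ± 12.8 FPKM and AKR1A1 52.5 ± 3.89 FPKM (SD, n = 5), with no overlap. At 16 mM, CBR1 (89.2 ± 8.28, SD, n = 5) stood second after AKR1B1 (132 ± 10.0), with ranges that overlapped those of ESD (84.3 ± 3.90), which in turn overlapped ADH5 (81.9 ± 1.59). AKR1A1 (44.6 ± 2.12) and CBR3 (23.7 ± 3.32) followed without overlap. Below them AKR1C3 averaged 0.865 ± 0.581 FPKM in control and 0.680 ± 0.333 at 16 mM, and the other 3 members averaged under 0.2 FPKM in both groups.

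CBR1 and CBR3 varied together across the 17 libraries, with Spearman's rho of 0.868 for TMM-scaled log2 counts (0.841 over 16 without 10 mM library 1). These points share the groups, the close sets and library depth, so the value is a description. ADH5 followed CBR1 at rho 0.838, CBR3 at 0.600 and ESD at 0.544, whereas AKR1A1, AKR1B1 and ESD followed CBR3 at -0.216, -0.225 and -0.191. The tested genes most like CBR1 were HSP90AA1 (rho 0.988), WDR3 and CCT4 (0.985 each). Those most like CBR3 were DNPEP, NOL9 (0.988 each) and HES1 (0.985), and those most like ADH5 were PSMB2 (0.951), NDUFC2 (0.949) and UBB (0.939). AKR1B1 was most like RPL27A (0.978), RPL4 and IGFBP6 (0.975 each), AKR1A1 like ATP5PB (0.963), MICOS10 (0.961) and PDHA1 (0.958), and ESD like SNAP23 (0.946), ANO10 and CHP1 (0.936 each). AKR1C3 was most like EBP, ACAT2 and POMT2 (0.912 each), and AKR1C2 like COX17 (0.870), DAZAP2 and NDUFA2 (0.853 each). Without 10 mM library 1, the 3 genes most like AKR1C3 were LSS, SLC22A17 and ZMYM3. Those most like AKR1C2 were FECH, SMAD3 and CTTN, so none of the 3 named for either gene stayed. Of the named genes, CBR1 kept only HSP90AA1, ADH5 only PSMB2 and ESD only CHP1, while CBR3, AKR1A1 and AKR1B1 kept theirs. These values carry the same limits as the one above.

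Without 10 mM library 1, 5 of the 8 tested members were called higher at 10 mM than in control and 0 lower, against 22.4% and 22.8% of all genes (45.2% in all). At 16 mM, 3 of 8 were higher (CBR1, CBR3 and ADH5) and 3 lower (ESD, AKR1A1 and AKR1B1), against 33.7% and 32.2% (65.9% in all), so the members' shares were near those of all genes. Between the doses, CBR3 was higher and ESD, AKR1C2 and AKR1C3 were lower at 16 mM, against 23.2% and 20.9% (44.1% in all). The median change of the 8 tested members was 0.37 at 10 mM and -0.02 at 16 mM on the log2 scale, beside 0.00 and 0.01 over all tested genes. These counts and medians include AKR1C2, which was tested only because its 10 mM libraries reached the count filter. Its rise at 10 mM and its fall between the doses were favoured by that filter and lend the counts no support.

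**Figure D4:**
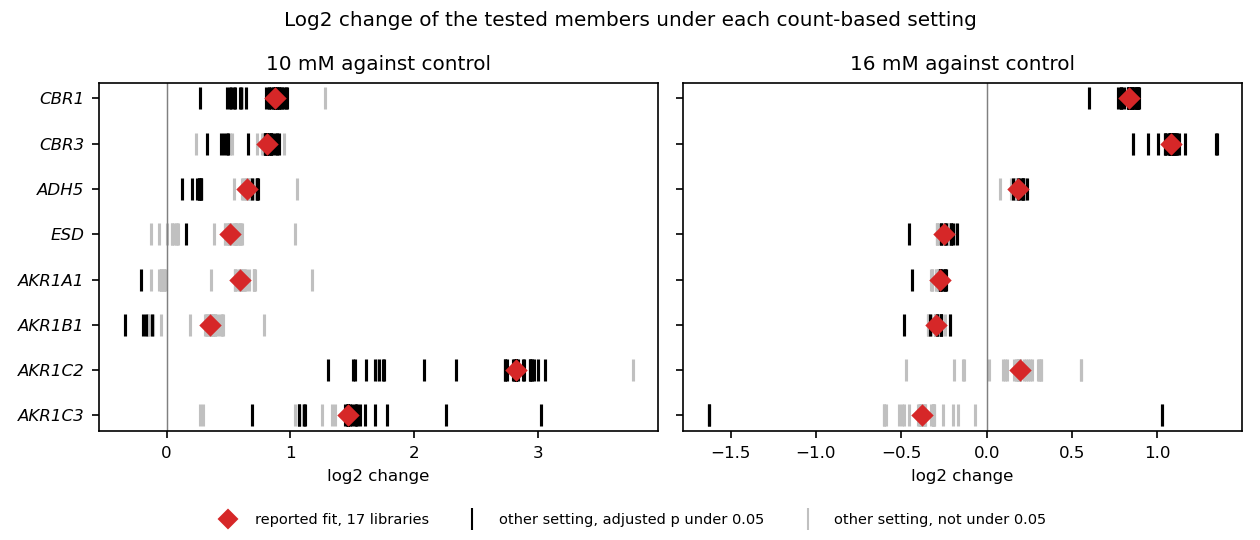
Log2 change (horizontal axes) of the 8 tested members under each count-based setting, for 10 mM and for 16 mM against control; diamonds are the fit of 17 libraries, black ticks other settings with an adjusted p under 0.05 and grey ticks those without. CBR1 and CBR3 lie above 0 in every setting at both doses, while AKR1A1 and AKR1B1 lie on both sides of 0 at 10 mM.

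Related families and supply routes were read from 6 gene lists, with counts beside the shares of all genes given above. Among the other aldo-keto reductases, 5 of 11 listed genes were tested. KCNAB3, a potassium channel subunit with the aldo-keto reductase fold, was the 1 gene called lower at both doses (-0.91 ± 0.20 at 10 mM, -1.40 ± 0.22 at 16 mM, edgeR adjusted p = 0.00458 and 9.77e-05). Of 25 tested other short-chain dehydrogenases, the family of CBR1, 3 were higher and 1 lower at 10 mM. At 16 mM 5 were higher and 10 lower, with a median of -0.26 on the log2 scale beside 0.00 over all genes. Without 10 mM library 1 these counts were 5 and 7 at 10 mM and 6 and 14 at 16 mM. DHRS7, a microsomal carbonyl reductase, rose by 0.81 ± 0.16 at 10 mM, and SPR, which completes tetrahydrobiopterin synthesis, by 0.92 ± 0.29 (adjusted p = 0.00251 and 0.0344). The rise of SPR was 0.42 ± 0.09 without 10 mM library 1 (adjusted p = 0.00133). CBR4, a mitochondrial carbonyl reductase, fell by 0.43 ± 0.11 at 10 mM (adjusted p = 0.0118). At 16 mM HSD17B8, its partner subunit, fell by 1.63 ± 0.50, and DHRS3, a retinaldehyde reductase, by 1.73 ± 0.52 (adjusted p = 0.0168 and 0.0158).

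The next list held 9 tested genes, all of the medium-chain family of ADH5 except ADHFE1, an iron-containing alcohol dehydrogenase. Of these, 2 were higher and 1 lower at 10 mM, and 1 higher and 2 lower at 16 mM. The 1 lower at 10 mM was ADHFE1, which was also among the 2 lower at 16 mM. ADHFE1 fell to 0.342 ± 0.103 FPKM at 16 mM (SD, n = 5), against 2.03 ± 1.05 FPKM in control (n = 6), a log2 change of -2.52 ± 0.41 (edgeR adjusted p = 0.000178). CRYZ, a quinone reductase, rose by 0.46 ± 0.16 at 16 mM (adjusted p = 0.0333). In the glyoxalase route, which removes methylglyoxal, 2 of 3 genes were higher at 10 mM and 1 at 16 mM, and GLO1 rose by 0.64 ± 0.21 at 10 mM and by 0.64 ± 0.22 at 16 mM (adjusted p = 0.0469 and 0.0334). The rise of GLO1 at 10 mM was 0.33 ± 0.09 without library 1, and 16 mM exceeded 10 mM by 0.32 ± 0.10 (adjusted p = 0.0125). Of 9 genes linked to NADPH supply, 3 were higher and 1 lower at 10 mM, and 1 higher and 2 lower at 16 mM. Some of the 9 form no NADPH themselves, among them TKT, higher at 10 mM, and NADK, the 1 gene higher at 16 mM. The pentose phosphate enzymes TKT and PGD rose by 0.88 ± 0.26 and 0.70 ± 0.23 at 10 mM (adjusted p = 0.0239 and 0.0399), and PGD by 0.41 ± 0.13 without library 1 (adjusted p = 0.0178). Malic enzyme ME1 fell by 0.62 ± 0.08 at 16 mM (adjusted p = 1.67e-05).

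Regulators and commonly used targets of NRF2 were mostly higher. Of 14 genes, 9 were called higher and 1 lower at 10 mM, and 11 higher and 0 lower at 16 mM, with medians of 0.80 and 1.20 on the log2 scale beside 0.05 and 0.00 over all tested genes. The 1 lower at 10 mM was SLC7A11, the cystine carrier (-0.81 ± 0.16, edgeR adjusted p = 0.00193). NQO1, the quinone reductase often read as an NRF2 target, rose by 1.79 ± 0.32 at 10 mM (edgeR adjusted p = 0.00110). OSGIN1 rose by 4.24 ± 0.71 and GCLM, a subunit of glutathione synthesis, by 1.69 ± 0.20 at 16 mM (adjusted p = 0.000211 and 5.64e-06). The rise of HMOX1, heme oxygenase, at 10 mM rested largely on library 1, being 4.55 ± 1.09 with it and 1.43 ± 0.39 without it (adjusted p = 0.00840 and 0.00620). NFE2L2, which encodes NRF2, had changes of -0.10 ± 0.16 at 10 mM (adjusted p = 0.673) and -0.07 ± 0.17 at 16 mM (adjusted p = 0.797). Without 10 mM library 1, NFE2L2 fell by 0.32 ± 0.06 at 10 mM (adjusted p = 0.000571) and 16 mM exceeded 10 mM by 0.26 ± 0.07 (adjusted p = 0.00419), and 11 of the 14 genes were higher and 2 lower at 10 mM.

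The authors' deposited table gives its own DESeq2 comparisons, with the following changes at 16 mM against control. In the authors' deposited table CBR1 has a log2 change of 0.83 with q = 9.48e-10 and CBR3 one of 1.08 with q = 7.19e-14. AKR1B1, AKR1A1 and ESD are listed lower at 16 mM in the authors' deposited table, at -0.30, -0.28 and -0.25 with q of 0.00515, 0.0133 and 0.0423. AKR1C1 is listed higher there at 1.18 with q = 0.0326, and ADH5 at 0.18 with q = 0.0513. At 10 mM the authors' deposited table lists CBR1 (0.91, q = 0.0174), CBR3 (0.85, q = 0.0267), AKR1C2 (2.98, q = 0.000186) and AKR1C3 (1.53, q = 0.0257) as higher.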

How the data were processed

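RNA was measured in 17 BEAS-2B libraries grouped by their titles. Per the labels' protocols, poly-A RNA was fragmented, reverse transcribed with random primers and made into circular single-strand libraries. The submitters' processing notes name DESeq2 1.4.5, RSEM 1.3.1, Bowtie2 2.3.4.3 and HISAT, without their roles, and build GRCh38.p13. The deposited read counts, so named per the file headers, were taken as unnormalized estimated counts, since 13.1% were not whole (tolerance 1e-06). The deposited FPKM, per the file headers, are scaled for gene length and depth, and the deposited TPM served for levels in 10 mM library 1. The log2 changes and q-values of the authors' deposited table are quoted only under that name, and its sign was checked against the group means.

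Expected counts were rounded and tested two-sided with edgeR 4.0.16 (R 4.3.3; TMM, filterByExpr with a minimum count of 10, glmQLFit, glmQLFTest) in 1 fit of 17 libraries without a block, over 12564 genes. An SE was derived from each log2 change and the square root of its F statistic. The code was tested on simulated data. Alternatives were a replicate block, DESeq2 1.42.0 and its size factors, no filter, limma 3.58.1 on log2(FPKM + 1) and log2(FPKM + 0.1), voom with sample weights, fewer groups or libraries, library-set terms, and each library left out. Close-set terms, sums and interactions were chosen after the data were seen. Within close sets the counts differed from each other by more than sampling noise, by a mean chi-square per gene of 1.76 to 12.6, against 22.4 to 59.0 between sets, and each was counted singly. This does not show whether they are separate cultures.

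All 10 members are named, up to 4 called genes of each list with at least 1 FPKM and the largest change, and the 3 genes most like each member by Spearman's rho. SLC7A11 at 10 mM and NFE2L2 were named after their values were seen. The members and lists were chosen with earlier results of these data known. Coding sequences come from GENCODE v29 and promoters from RefSeq GRCh38.p14.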

Additional observations from a re-analysis of the deposited data

Results flagged for a closer look

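Of 30 sets of FPKM values, 1 per member and group, 6 held a library set far apart from its neighbours, where chance flags about 1 in 20 groups. In 5 of the 6 this was 10 mM library 1, the highest of 6. It had 134.10 FPKM of ADH5 (next 93.12), 181.52 of ESD (next 114.69), 122.00 of AKR1A1 (next 59.19), 269.24 of AKR1B1 (next 167.73) and 2.08 of AKR1C2 (next 0.56). The sum of all FPKM in that library was 977403, against at most 554077 in the others, and its part in these values was not tested. In TPM that library was the lowest of the 10 mM group for ADH5 (137.20) and ESD (185.72). For AKR1B1 it had 275.47 TPM, inside the group's range of 256.64 to 302.72. It stayed the highest of the group for AKR1A1 (124.82 TPM) and AKR1C2 (2.12 TPM). The other was AKR1B10 in control library 5, at 0.45 FPKM (next 0.18), from 10 counts.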

How the results depend on the processing

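CBR1 and CBR3 kept a positive change against control in all 35 alternatives at each dose. CBR1 was called in 33 of them at 10 mM and 34 at 16 mM, and CBR3 in 27 and 34. The exception at 16 mM was the fit of libraries numbered 1 to 3, which called neither. On the FPKM scale the median of all genes shifted by -0.11 (log2(FPKM + 1)) or -0.14 (log2(FPKM + 0.1)) at 10 mM, and changes there are relative to that shift. No pairing by replicate number is named by the labels. Same-numbered deviations from the group means correlated at -0.21 to 0.30 for 10 mM against control and -0.04 to 0.26 for 16 mM against control. Between the doses they correlated at -0.39 to 0.41. The means included 10 mM library 1, and the close sets cover other numbers at 10 mM, so this check cannot decide on pairing. The block is given only here. The count filter lay at 0.592 CPM, which AKR1B10 reached in 0 libraries and AKR1C1 in 2, so smaller changes of these genes were not detectable.

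The counts of members in this paragraph stand without the share of all genes called, which differed widely between settings. For 10 mM against control that share was 1.83% with close libraries summed and 63.7% in close set A, and for 16 mM 25.8% and 71.9%. The counts therefore describe the settings and not the members. At 10 mM against control, 2 members were called higher with the replicate block, with only the groups compared and with close libraries summed plus a close-set term, 1 with libraries numbered 1 to 3 and 0 with close libraries summed. Leaving out 1 library gave 2 to 5. Of the members, 2 were lower with voom, and 1 with the library-set or close-library term without library 1 and in close set A. At 16 mM against control, 0 were higher with libraries numbered 1 to 3 and 4 in close set A. There 3 were lower with voom, only the groups compared, libraries numbered 4 to 6, the library-set term, replicate block or close-library term without library 1 and close set A, 4 in close set B, and 0 to 3 on leaving out 1 library. Between the doses, 1 was higher with limma on FPKM, and 2 with voom, libraries numbered 4 to 6, those 3 terms without library 1 and each close set, with 0 to 1 on leaving out 1 library. There 5 were lower with voom, the close-library term and close set A, 4 with the library-set term, the block without library 1 and close set B, 1 with only the groups compared, 0 with libraries numbered 1 to 3 or close libraries summed with or without a term, and 1 to 3 on leaving out 1 library.

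Some changes turned sign, and the cause was not tested. At 10 mM, AKR1B1 was at -0.0044 and -0.0046 with limma on FPKM. With voom AKR1B1, AKR1A1 and ESD were at -0.34, -0.21 and -0.12, and with libraries numbered 4 to 6 at -0.16, -0.12 and -0.058. Without library 1, AKR1B1 and AKR1A1 were at -0.17 and -0.064 with the library-set term, -0.15 and -0.048 with the replicate block, -0.12 and -0.022 with the close-library term, -0.11 and -0.025 with close libraries summed, and -0.11 and -0.023 with the term added. They were at -0.19 and -0.0047 in close set A and at -0.042 and -0.049 in close set B. On leaving out 1 library they ranged from -0.14 to 0.45 and from -0.047 to 0.71. At 16 mM, AKR1C2 was at -0.47 with voom, -0.14 with libraries numbered 1 to 3, -0.13 in close set A and -0.19 to 0.32 on leaving out 1 library, and AKR1C3 at 1.02 with libraries numbered 1 to 3 and 1.03 in close set A. Between the doses, CBR1 was at 0.047 with the replicate block, 0.21 and 0.21 with limma on FPKM, 0.33 with voom and 0.36 with libraries numbered 4 to 6. Without library 1 it was at 0.36 with the library-set term, 0.36 with the block, 0.30 with the close-library term, and 0.26 and 0.27 with close libraries summed without and with a term. It was at 0.34 in close set A, 0.21 in close set B and -0.14 to 0.29 on leaving out 1 library. CBR3 was at -0.093 between the doses with libraries numbered 1 to 3.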
